A study of Mus musculus with 3 samples.

Results

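Upper-crypt mucus goblet cells of the mouse colon were taken here as the barcodes that devoted many of their transcripts to goblet genes and few to the secretory cells of the crypt base. A barcode was a member if it had at least 300 detected genes, at most 25% mitochondrial unique molecular identifiers (UMIs, each standing for one captured transcript), at least 2% of its UMIs from 15 summed goblet genes and under 1% from Spink4, Mptx1 and Retnlb together. The 15 genes were Muc2, Tff3, Clca1, Fcgbp, Zg16, Agr2, Spink4, Spdef, Atoh1, Sytl2, Ccl9, Capn9, Bcas1, Galnt12 and Fer1l6. This gave 1080 members of the 16406 barcodes that met the gene and mitochondrial limits, out of 21449 deposited barcodes. There were 90 members in the BT mutant library, 835 in the BT WT library and 155 in the PBS library.

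The study profiled single cells from the colon of mice raised without microbes, with 1 droplet library for each of 3 groups. One group was colonized with a strain labelled BT mutant, one with a strain labelled BT WT, and one received PBS. The labels spell out neither BT nor the mutation, and mouse strain, age, sex and the number of animals behind a library are not stated in the sources used here. With 1 library per group there was no replicate, so the comparisons below carry no p-value, and differences between the mice, the dissociations and the treatments cannot be told apart.

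Goblet cells make the mucus that separates the colonic epithelium from the microbes of the lumen. They pack MUC2, a gel-forming mucin heavily coated with O-linked sugars, into granules together with partner proteins and release it onto the surface, where it unfolds into a layered gel. They form from secretory progenitors low in the crypt, move upward as they mature, and near the crypt opening carry genes of differentiated surface epithelium such as Krt20. Microbes and their products are known to change how much mucus goblet cells release and how it is glycosylated.

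The 3 libraries held 8195 barcodes and 54943483 UMIs (BT mutant), 8829 barcodes and 55436776 UMIs (BT WT), and 4425 barcodes and 42003444 UMIs (PBS). Members contributed 631148, 5328169 and 1273990 UMIs in the same order of libraries, so values of the BT WT members rest on the most transcripts and those of the BT mutant members on the fewest. The median member held 4099 UMIs in the BT mutant, 5119 in the BT WT and 6611 in the PBS library. Its median mitochondrial share was 11.2% in the BT mutant, 12.7% in the BT WT and 14.1% in the PBS library. Between pairs of libraries, 8 to 19 barcode sequences were shared, and those of 0 BT mutant, 3 BT WT and 0 PBS members were among them. Free RNA was read in B cell barcodes, which should hold no goblet transcripts: their median goblet marker share was 0.0247% in the BT mutant, 0.131% in the BT WT and 0.0885% in the PBS library. The highest goblet share of any B cell barcode was 1.06%, under the 2% asked of a member.

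Of the 5 markers that define these cells, Muc2, Zg16 and Fcgbp lie on chromosome 7 (GRCm38: Muc2 7:141690340-141754693, plus strand; Zg16 7:127050156-127087328, minus strand; Fcgbp 7:28071236-28120862, plus strand), Clca1 on chromosome 3 (3:145003817-145032776, minus strand) and Tff3 on chromosome 17 (17:31125306-31129646, minus strand). The 250 bases before the transcription start are shown for Muc2 and Fcgbp, which encode the mucin and a protein found bound in its gel. Of the 5 markers, only these had a matched RefSeq promoter. Both windows carry letters of motifs known from goblet regulators. Sequences are from RefSeq (GRCm38.p6), plus strand, 5′ to 3′, with motif letters in capitals.
Muc2, chr7:141690090-141690339: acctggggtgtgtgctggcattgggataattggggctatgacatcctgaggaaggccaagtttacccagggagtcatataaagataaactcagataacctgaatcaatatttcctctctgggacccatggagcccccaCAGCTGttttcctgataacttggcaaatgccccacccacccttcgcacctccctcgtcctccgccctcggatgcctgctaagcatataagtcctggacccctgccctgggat
Fcgbp, chr7:28070986-28071235: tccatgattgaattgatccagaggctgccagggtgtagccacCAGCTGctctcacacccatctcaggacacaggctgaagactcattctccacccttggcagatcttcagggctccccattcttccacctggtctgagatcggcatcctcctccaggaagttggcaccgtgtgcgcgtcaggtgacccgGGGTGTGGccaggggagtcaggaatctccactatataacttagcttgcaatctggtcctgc
The capitals in the Muc2 sequence and the first in the Fcgbp sequence are CAGCTG, an E-box of the kind that basic helix-loop-helix factors such as ATOH1 bind. Fcgbp also holds GGGTGTGG, the reverse strand of CCACACCC, a motif of KLF-type factors, a family that includes the goblet factor KLF4. Each motif was searched on both strands in the same 250-base window of 32851 RefSeq promoters, of which 13.0% held CAGCTG and 3.20% held CCACACCC. The letters TGTTTAC (FOXA-type, 3.17% of all promoters), TTTATGG (CDX-type, 2.43%) and GACGTG (ATF6- and XBP1-type, 5.20%) were in neither window. These matches describe letters and show no binding.

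A few very large members weighed on the sums, and doublets were not removed. Those over 20000 UMIs numbered 4 in the BT mutant, 15 in the BT WT and 8 in the PBS library and held 42.5%, 10.3% and 27.6% of all member UMIs. In the BT mutant library, 3 of the 4 had Zg16 under 0.01% of UMIs, and 2, with 79801 and 101267 UMIs, took 3.42% and 3.28% of theirs from enteroendocrine hormones and markers. All 4 lay low in goblet markers, at 2.34% to 4.87% of UMIs against a median of 13.2% for the library's members. Their share of Spink4, Mptx1 and Retnlb reached 0.945%, near the 1% limit. These large members held 6047 of the 6065 enteroendocrine UMIs among BT mutant members. Levels of BT mutant members over all UMIs therefore shift, for some genes by more than 1.5-fold, when these 4 are left out, and a number of genes are given both ways below. A difference is said below to hold only where it was at least 1.5-fold in the sum, with each member given equal weight, and without members over 20000 UMIs. That criterion was chosen after the data had been seen.

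Goblet genes filled a large part of a member's transcriptome. The 15 genes took a median of 13.2% of UMIs in BT mutant, 11.8% in BT WT and 9.29% in PBS members, with a highest value of 33.6%, 31.9% and 27.5% in that order of libraries. Levels are given below as CPM, the usual depth-scaled UMI count, over all members of a library summed, unless stated otherwise. The members were chosen by their UMI shares of these markers, so the levels are a description. Muc2, the gel-forming mucin, was at 21259.7 CPM in BT mutant, 18313 in BT WT and 11957 in PBS members. Zg16, a lectin-like protein that binds Gram-positive bacteria, was at 16716 CPM in BT mutant, 31181 in BT WT and 59067 in PBS members. Clca1, a secreted metalloprotease that processes the mucus, was at 15971 CPM in BT mutant, 20015 in BT WT and 14824 in PBS members, and Fcgbp was at 13224 CPM in BT mutant, 13328 in BT WT and 11855 in PBS members. Tff3, a trefoil peptide of epithelial repair, was at 17747 CPM in BT mutant, 23366 in BT WT and 35859 in PBS members. Without members over 20000 UMIs, the level of Clca1 was 26706 CPM in BT mutant, 21713 in BT WT and 16356 in PBS members. Fcgbp was then at 22354 CPM in BT mutant, 14397 in BT WT and 13362 in PBS members. Tff3 was then at 29999.8 CPM in BT mutant, 25505 in BT WT and 40769 in PBS members. The 3 genes were thus higher in BT mutant than in BT WT members once the large members were left out. The same order was seen with equal weight per member, where Clca1 was at 23157 CPM in BT mutant, 21752 in BT WT and 11527 in PBS members. Fcgbp was at 19578 CPM in BT mutant, 14652 in BT WT and 9958 in PBS members with equal weight. Tff3 was at 26849 CPM in BT mutant, 25819 in BT WT and 27929 in PBS members with equal weight. Without the large members, Muc2 was at 28487 CPM in BT mutant, 19641 in BT WT and 13906 in PBS members. Zg16 was at 28357 CPM in BT mutant, 33671 in BT WT and 63396 in PBS members, and both kept the order of libraries seen in the sum. All 5 markers were seen together in 91.1% of BT mutant, 98.8% of BT WT and 89.7% of PBS members. Muc2 was at 0 UMIs in 0 BT mutant, 2 BT WT and 8 PBS members, and the 8 PBS members were shallow, with a median of 578.5 UMIs.

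The regulators among the rule genes were rarer. Atoh1, which commits progenitors to the secretory fate, was at 128 CPM in BT mutant, 165 in BT WT and 128 in PBS members, and Spdef, which drives goblet maturation, at 132 CPM in BT mutant, 142 in BT WT and 115 in PBS members. Fer1l6, a ferlin-family protein, was at 705 CPM in BT mutant, 926 in BT WT and 921 in PBS members. Sytl2, which links granules to the exocytosis machinery, was at 482 CPM in BT mutant, 699 in BT WT and 626 in PBS members, and Bcas1 at 336 CPM in BT mutant, 486 in BT WT and 595 in PBS members. Capn9, a calpain protease of the gut, was at 139 CPM in BT mutant, 182 in BT WT and 218 in PBS members, Galnt12, which starts O-linked sugar chains, at 165 CPM in BT mutant, 136 in BT WT and 131 in PBS members, and Ccl9, a chemokine, at 23.8 CPM in BT mutant, 11.4 in BT WT and 7.85 in PBS members. Without members over 20000 UMIs, Atoh1, Spdef, Fer1l6, Sytl2, Bcas1 and Capn9 were at 204, 157, 1188, 802, 549 and 243 CPM in BT mutant and 178, 142, 1015, 760.0, 527 and 199 CPM in BT WT members. Each of the 6 was then higher in BT mutant than in BT WT members. With equal weight per member, Sytl2 (773 CPM in BT mutant, 829 in BT WT) and Bcas1 (491 and 568 CPM) were lower in BT mutant. Spdef was level with equal weight, at 159.9 CPM in BT mutant and 159.5 in BT WT, while Atoh1, Fer1l6 and Capn9 stayed higher in BT mutant. Without members over 20000 UMIs, Bcas1 and Capn9 were highest in PBS members, at 660 and 250 CPM. Ccl9 was then at 11.0 CPM in BT mutant, 9.83 in BT WT and 7.58 in PBS members. Agr2, the disulfide isomerase that folds MUC2, was at 3555 CPM in BT mutant, 726 in BT WT and 869.7 in PBS members, against 12848 CPM in BT mutant, 9886 in BT WT and 8336 in PBS crypt-base barcodes, so it was more abundant in those. The Agr2 excess of BT mutant members rested on few of them. It was at 725 CPM in BT mutant, 352 in BT WT and 566 in PBS members when those over 20000 UMIs were left out. With equal weight it was at 964 CPM in BT mutant, 450.2 in BT WT and 697 in PBS members. The median member gave it 0.0219% of UMIs in BT mutant, 0.0211% in BT WT and 0.0209% in PBS. The crypt-base barcodes were those that met the other limits but had at least 1% of UMIs from Spink4, Mptx1 and Retnlb: 42 in the BT mutant, 32 in the BT WT and 31 in the PBS library.

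The label of upper-crypt cells was checked with genes the rule did not use. Krt20, a keratin of differentiated surface epithelium, was at 368 CPM in BT mutant, 459.8 in BT WT and 500.0 in PBS members, against 21.8 CPM in BT mutant, 9.26 in BT WT and 6.84 in PBS crypt-base barcodes. Mxd1, a MYC antagonist of differentiating cells, was at 727 CPM in BT mutant, 1394 in BT WT and 724 in PBS members, against 43.6 CPM in BT mutant, 48.2 in BT WT and 31.5 in PBS crypt-base barcodes. The summed upper crypt and surface list was at 9120 CPM in BT mutant, 15748 in BT WT and 16312 in PBS members, and at 3165, 4697 and 5770 CPM in the crypt-base barcodes of those libraries. The lower crypt and stem list ran the other way, at 1139 CPM in BT mutant, 390.0 in BT WT and 400 in PBS members and 2535, 3058 and 2643 CPM in crypt-base barcodes. Genes of secretion did not all go the same way. The granule packaging and exocytosis list, which includes 2 rule genes, was higher in members. It was at 2882 CPM in BT mutant, 3593 in BT WT and 3274 in PBS members, against 1228, 1482 and 1277 CPM in crypt-base barcodes. The protein folding and secretion list was lower in members, at 5441, 3732 and 4477 CPM against 9779, 10128.5 and 9295 CPM in crypt-base barcodes. Ostc, part of the enzyme that attaches N-linked sugars, was at 139 CPM in BT mutant, 37.3 in BT WT and 40.0 in PBS members against 413 CPM in BT mutant, 354 in BT WT and 232 in PBS crypt-base barcodes. Sec11c, a signal peptidase subunit, was at 187 CPM in BT mutant, 54.2 in BT WT and 81.6 in PBS members against 533 CPM in BT mutant, 383 in BT WT and 325 in PBS crypt-base barcodes. The crypt-base class was cut from the same genes, so its differences from members are a description. Set against all other kept barcodes, the lists did not uniformly go with the label. The upper crypt and surface list was at 19066 CPM in BT mutant, 15853 in BT WT and 18309 in PBS barcodes other than members, and at 33264, 27398 and 41822 CPM in colonocyte barcodes. Members were below both, though BT WT members were nearly level with the other BT WT barcodes. The lower crypt and stem list was at 575 CPM in BT mutant, 743 in BT WT and 819 in PBS barcodes other than members, under the BT mutant and above the BT WT and PBS members. Without members over 20000 UMIs, the lower crypt list was at 262 CPM in BT mutant, 278 in BT WT and 409.5 in PBS members.

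Beyond the rule genes, the 15 genes that most set members above all other kept barcodes in each library were Rep15, Slfn4, Spink1, Sval1, Rab27b, Cracr2a, Mcf2l, Tpsg1, Qsox1, Mlph, Gm1123, Syt7, Nupr1, Ang4 and Hepacam2. Several act in granule traffic: RAB27B and its effector family dock secretory granules, REP15 binds the endosomal GTPase RAB15, MLPH links RAB27-bearing granules to myosin, and SYT7 is a calcium sensor of exocytosis. QSOX1 forms disulfide bonds in secreted proteins, and SPINK1 is a secreted trypsin inhibitor. Spink1 was the most abundant, at 3663 CPM in BT mutant, 5315 in BT WT and 11602 in PBS members, against 218 CPM in BT mutant, 223 in BT WT and 1296 in PBS colonocyte barcodes. Rep15 was at 363 CPM in BT mutant, 575 in BT WT and 866 in PBS members, against 1.73 CPM in BT mutant, 11.7 in BT WT and 4.73 in PBS colonocyte barcodes. Slfn4, of the Schlafen family, separated members from the crypt base as well, at 406 CPM in BT mutant, 691 in BT WT and 261 in PBS members against 1.36 CPM in BT mutant, 5.56 in BT WT and 1.37 in PBS crypt-base barcodes. When members over 20000 UMIs were left out, Spink1 was at 6147 CPM in BT mutant, 5756 in BT WT and 12119.5 in PBS members, which turned the order of BT mutant and BT WT. Rep15 was then at 579 CPM in BT mutant, 619 in BT WT and 893 in PBS members. Slfn4 was then at 692 CPM in BT mutant, 749 in BT WT and 330.5 in PBS members. Slfn4 has close relatives in the genome, so its counts are uncertain to the extent that reads were shared among them.

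**Figure D1:**
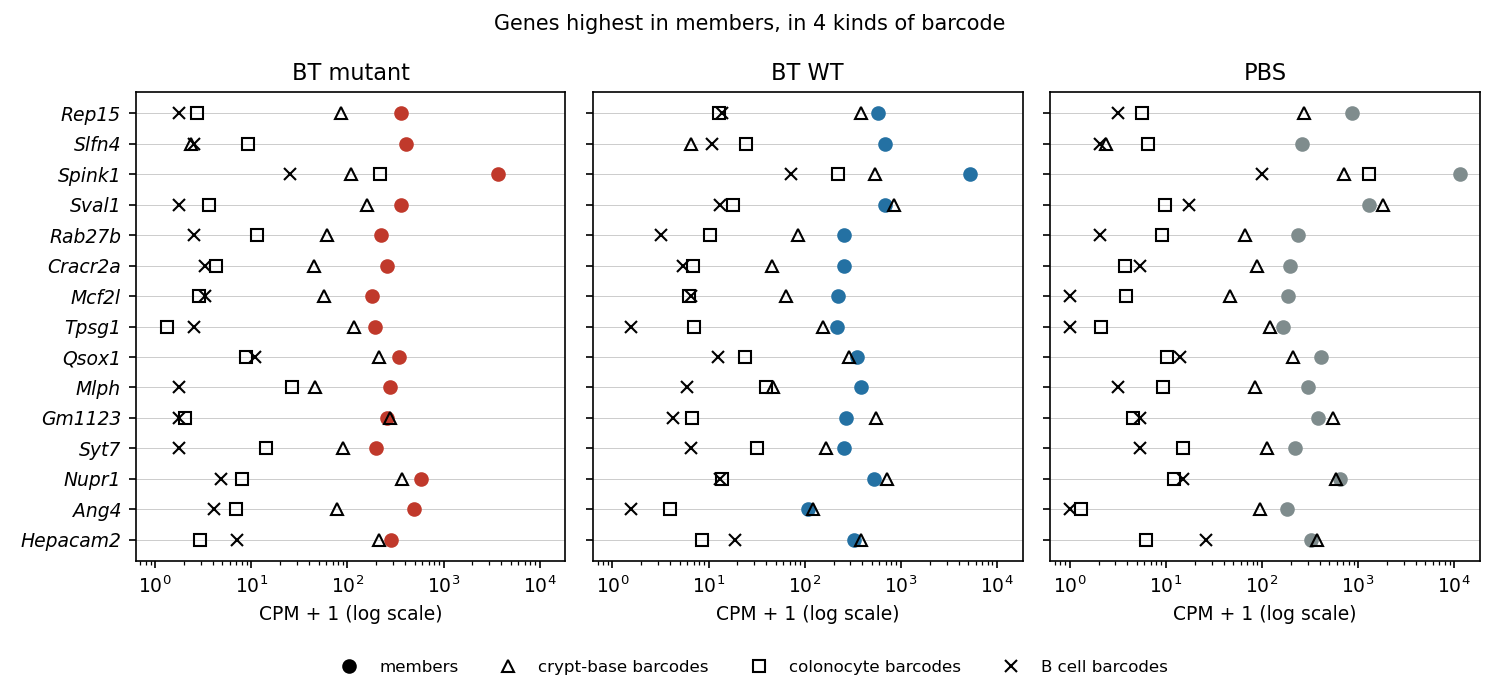
Levels of the 15 genes that most separated members from other kept barcodes, as CPM + 1 on a log axis, for the BT mutant, BT WT and PBS libraries; filled circles are members, triangles crypt-base, squares colonocyte and crosses B cell barcodes. Members lie right of colonocyte and B cell barcodes for each gene, while for Sval1, Gm1123, Nupr1, Ang4 and Hepacam2 the crypt-base barcodes reach or pass the members in at least 1 library.

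Members spread widely around their medians. Across the middle 90% of members, the Zg16 share of UMIs ran from 0.00113% to 4.85% in BT mutant, from 0.732% to 7.60% in BT WT and from 0.562% to 11.1% in PBS members. Muc2 ran from 0.773% to 4.96% in BT mutant, from 0.504% to 3.79% in BT WT and from 0.0621% to 2.23% in PBS members. Near the lower limit, members with 2% to 3% goblet markers numbered 6 in the BT mutant, 42 in the BT WT and 29 in the PBS library. They made up 6.67%, 5.03% and 18.7% of members in that order. Those of the PBS library were shallow, with a median of 1070 UMIs against 4270.5 in the BT mutant and 5097 in the BT WT library. Barcodes just outside, with 1% to 2%, numbered 20, 178 and 125 in those libraries. The lowest member had 2.20%, 2.0% and 2.01% and the highest barcode outside 1.89%, 1.99% and 1.98%, so no gap marked the limit. At the other limit, the highest share of Spink4, Mptx1 and Retnlb in a member was 0.945%, 0.969% and 0.984%, and the lowest share outside was 1.12%, 1.01% and 1.0%. Members whose colonocyte marker share reached 1% numbered 6 of 90 (6.67%) in the BT mutant, 202 of 835 (24.2%) in the BT WT and 22 of 155 (14.2%) in the PBS library.

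The share of epithelial barcodes that were members differed widely among the libraries. Members were 2.20% of epithelial barcodes in the BT mutant library (89 of 4050, exact binomial 95% interval 1.77 to 2.70%), 17.8% in the BT WT library (825 of 4643, 16.7 to 18.9%) and 9.65% in the PBS library (142 of 1472, 8.19 to 11.3%). A further 1 BT mutant, 10 BT WT and 13 PBS members were not among the epithelial barcodes. All intervals here and below cover counting error only. The BT mutant share was 8.09-fold lower than the BT WT share (6.49 to 10.2) and 4.39-fold lower than the PBS share (3.34 to 5.79), and the BT WT share was 1.84-fold higher than the PBS share (1.54 to 2.22). The mitochondrial limit moved these shares: at 10% they were 4.08% in the BT mutant, 32.6% in the BT WT and 4.44% in the PBS library, and with no limit 1.76%, 14.2% and 7.35%. The order of BT mutant under BT WT stood at each limit, whereas BT mutant and PBS came within each other's counting intervals at the 10% limit. Of all barcodes with at least 2% goblet markers, members rather than crypt-base barcodes made up 68.2% in the BT mutant, 96.3% in the BT WT and 83.3% in the PBS library. A share of captured barcodes depends on dissociation and on cell survival, and the part of either was not tested.

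**Figure D2:**
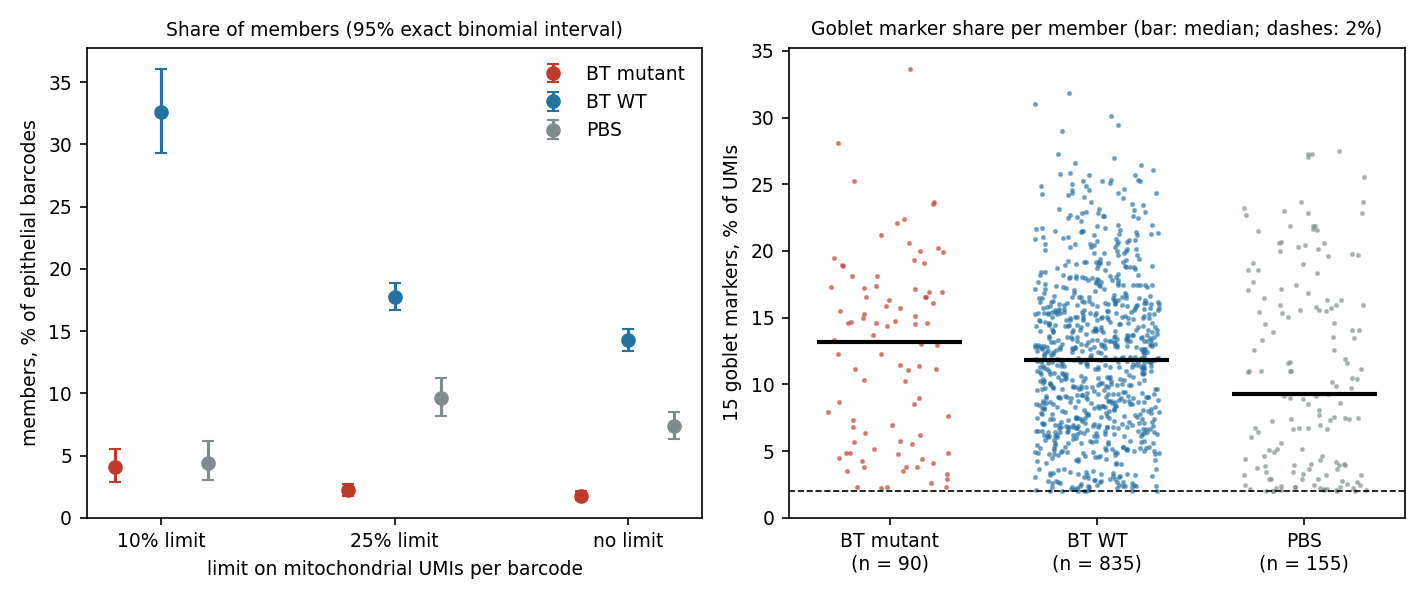
Left, members as a percentage of epithelial barcodes under 3 limits on mitochondrial UMIs, with exact binomial 95% intervals; right, the share of UMIs from the 15 goblet markers in each member, with the median as a bar and the 2% limit as a dashed line. BT WT is highest at each limit, and PBS moves from 9.65% at the 25% limit to 4.44% at the 10% limit, beside 4.08% for BT mutant.

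Among the markers, the balance of Zg16 to Muc2 differed among the 3 libraries. Members held 10550 Zg16 and 13418 Muc2 UMIs in the BT mutant library, 166138 and 97575 in the BT WT library, and 75251 and 15233 in the PBS library. The ratio of Zg16 to Muc2 UMIs was thus 0.786 in BT mutant (exact 95% interval 0.766 to 0.807), 1.70 in BT WT (1.69 to 1.72) and 4.94 in PBS members (4.85 to 5.03). A ratio of 2 genes' UMIs within a library is compared here only across libraries and says nothing of which gene has more transcript per length. Zg16 outnumbered Muc2 in 24 of 90 BT mutant members (26.7%, 17.9 to 37.0%), 631 of 835 BT WT members (75.6%, 72.5 to 78.4%) and 146 of 155 PBS members (94.2%, 89.3 to 97.3%). Many members lay near that cut, with 34 BT mutant, 296 BT WT and 11 PBS members within 0.5 of equality on the log2 scale.

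The order of the ratio was the same in each subset examined. Both genes helped choose the members and the subsets overlap, so these values are a description and not independent support. Without members over 20000 UMIs it was 0.995 in BT mutant, 1.71 in BT WT and 4.56 in PBS members. Among members with at least 10% goblet markers it was 1.15 in BT mutant, 1.89 in BT WT and 5.43 in PBS members. Barcodes that met the other limits but had over 25% mitochondrial UMIs gave 1.39 in the BT mutant (14 barcodes), 1.49 in the BT WT (72) and 3.23 in the PBS library (34). The free goblet RNA in B cell barcodes carried the same order, with 0.646 in the BT mutant, 1.64 in the BT WT and 3.52 in the PBS library, although it rested on 53 to 685 Zg16 UMIs. As shares of the 5 markers' UMIs, Muc2 made up 25% in BT mutant, 17.2% in BT WT and 8.95% in PBS members, and Zg16 19.7%, 29.4% and 44.2%. Clca1 made up 18.8% in BT mutant, 18.8% in BT WT and 11.1% in PBS members, Fcgbp 15.6%, 12.5% and 8.88%, and Tff3 20.9%, 22% and 26.8%. Zg16 and Tff3 therefore had their highest share of the 5 in PBS members, and Muc2, Fcgbp and Clca1 their lowest.

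**Figure D3:**
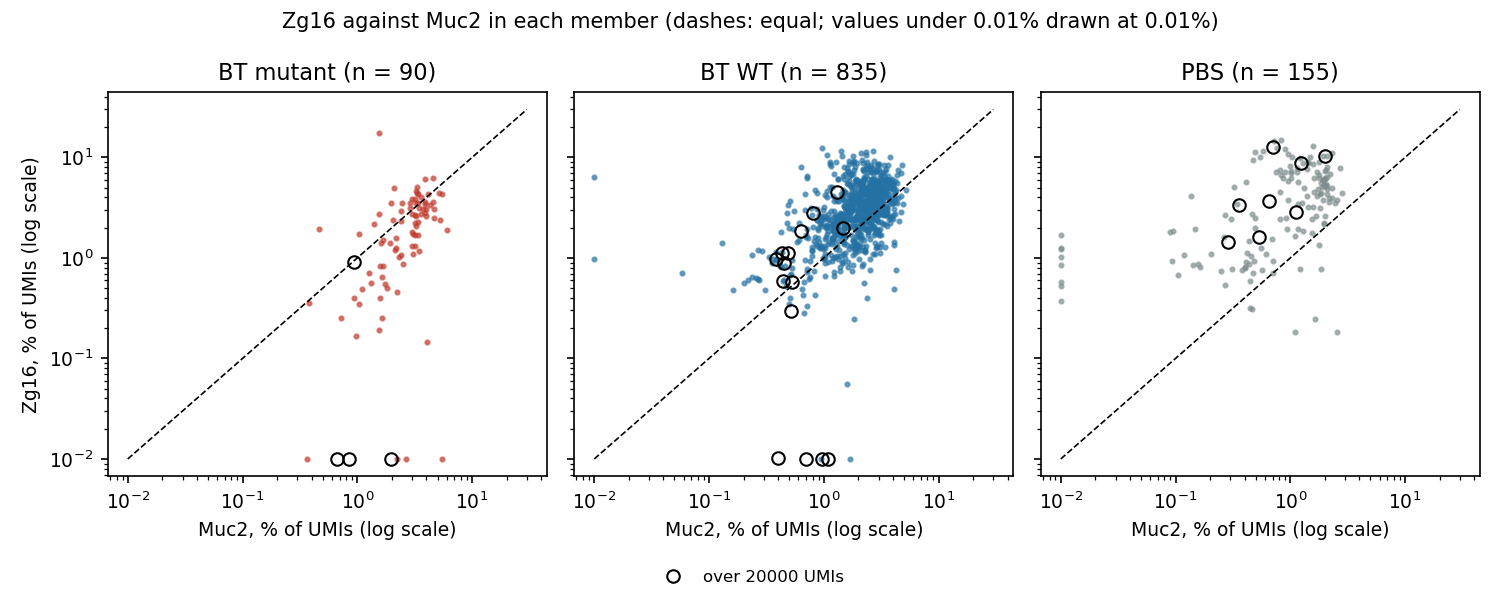
Zg16 against Muc2 in each member, both as a percentage of the member's UMIs on log axes, for BT mutant, BT WT and PBS members; the dashed line marks equality, rings mark members over 20000 UMIs, and values under 0.01% are drawn at 0.01%. Points lie mostly under the line in BT mutant, mostly above it in BT WT and nearly all above it in PBS members, with 26.7%, 75.6% and 94.2% of members above it.

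Within the BT WT library, 631 members had more Zg16 and 197 had more Muc2. Both genes and the other markers chose the members, so their values on the sides of this split are a description. The 15 goblet genes took a median of 13.0% of UMIs in the Zg16-rich and 8.69% in the Muc2-rich members. With equal weight per member, Tff3 was at 29008 CPM in the Zg16-rich and 15836 CPM in the Muc2-rich members, Clca1 at 23379 and 16888 CPM, and Fcgbp at 15581 and 11853 CPM in that order, so these 3 were all higher in the Zg16-rich members. Among genes outside the rule, Krt20 was at 441 CPM in the Zg16-rich and 506 CPM in the Muc2-rich members. Slfn4 was at 757 CPM in the Zg16-rich and 1005 CPM in the Muc2-rich members, and Mxd1 at 1426 and 1555 CPM. The upper crypt and surface list went the other way, at 15363 CPM in the Zg16-rich and 13923 CPM in the Muc2-rich members. Lypd8, at 3135 and 2452 CPM, and Saa1, at 5343 and 4125 CPM, were also higher in the Zg16-rich members. Surface genes therefore did not all fall on the same side of the split. In the BT mutant library, Tff3 was at 40988 CPM in the 24 Zg16-rich and 21707 CPM in the 66 Muc2-rich members.

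Ang4 was higher in BT mutant than in BT WT and PBS members, and both differences held. It encodes an angiogenin-family ribonuclease with antibacterial activity and lies on chromosome 14 (GRCm38 14:51763878-51773590, minus strand). It was at 498 CPM in BT mutant, 107 in BT WT and 182 in PBS members, from 314, 569 and 232 UMIs, and was therefore 4.66-fold higher (95% interval 4.05 to 5.36) in BT mutant than in BT WT members. The difference was 2.12 in the sum, 2.68 with equal weight per cell and 2.81 without the largest members on the log2 scale, in which 10 CPM are added to both sides. At least 1 Ang4 UMI was found in 54 of 90 BT mutant members (60.0%, 95% interval 49.1 to 70.2%), 146 of 835 BT WT members (17.5%, 15 to 20.2%) and 23 of 155 PBS members (14.8%, 9.64 to 21.4%). After each member was thinned to 1000 UMIs, leaving out 8, 44 and 27 shallower members, the share was 42.7% in BT mutant, 5.94% in BT WT and 7.03% in PBS members. In B cell barcodes it was 0.877% in BT mutant, 0.164% in BT WT and 0.00% in PBS (median depths 2726, 2761 and 3478 UMIs), the PBS value from 0 of 248 barcodes, which allows a share of up to 1.21% of barcodes with a UMI. Within the BT mutant library Ang4 was at 767 CPM in Zg16-rich and 686 CPM in Muc2-rich members with equal weight. Angiogenin genes are close copies in the mouse, so reads could have been divided or dropped among them.

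Retnlb and Mptx1 set the upper limit of the rule and are a description. Retnlb, a resistin-like antimicrobial protein of goblet cells, was at 195 CPM in BT mutant, 24.6 in BT WT and 64.4 in PBS members and had a UMI in 51.1% of BT mutant, 8.02% of BT WT and 18.7% of PBS members. Retnlb was at 300.4 CPM in BT mutant, 26.8 in BT WT and 72.6 in PBS members without members over 20000 UMIs. Mptx1, a secreted pentraxin, was at 1516 CPM in BT mutant, 527 in BT WT and 1126 in PBS members. Saa1, Saa2 and Lypd8 held as lower in BT mutant than in BT WT members. Saa1, a serum amyloid protein, was at 2373 CPM in BT mutant, 5553 in BT WT and 4400.4 in PBS members. Saa1 was thus 2.34-fold lower (95% interval 2.22 to 2.47) in BT mutant than in BT WT members. Saa2, its near-identical neighbour, was at 14.3 CPM in BT mutant, 63.8 in BT WT and 62.8 in PBS members. Lypd8, which binds flagella and keeps bacteria off the surface, was at 1627 CPM in BT mutant, 3116 in BT WT and 3814 in PBS members. Both are colonocyte genes as well, with Saa1 at 6818 CPM in BT mutant, 10493 in BT WT and 11856 in PBS colonocyte barcodes and Lypd8 at 8110.4 CPM in BT mutant, 6766 in BT WT and 14387 in PBS colonocyte barcodes, and the part of colonocyte RNA in these values was not tested.

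**Figure D4:**
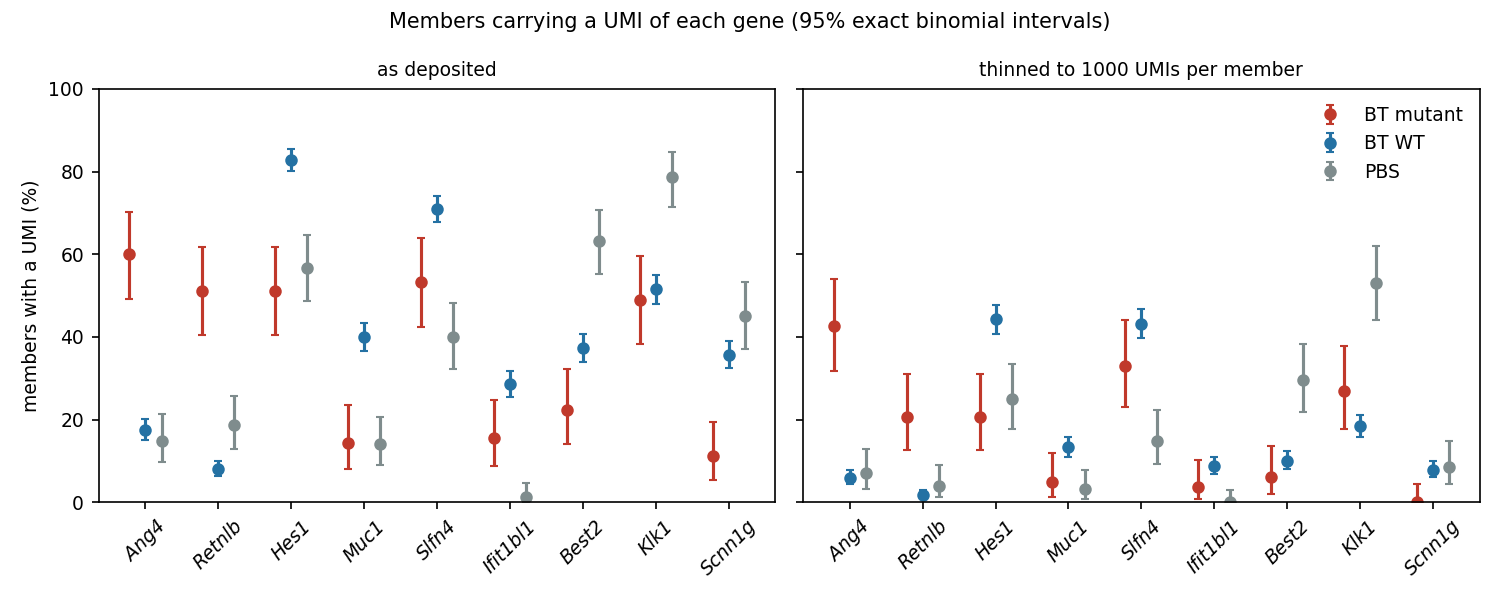
Share of members with at least 1 UMI of Ang4, Retnlb, Hes1, Muc1, Slfn4, Ifit1bl1, Best2, Klk1 and Scnn1g, with exact binomial 95% intervals, as deposited (left) and after thinning each member to 1000 UMIs (right). Ang4 and Retnlb stand highest in BT mutant, Hes1 and Muc1 in BT WT, and Best2 and Klk1 in PBS members on both sides.

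Membrane-bound mucins, which form the glycocalyx under the secreted gel, were compared through 5 detected members. Muc1 (chromosome 3, GRCm38 3:89229057-89233381, plus strand) was at 34.9 CPM in BT mutant, 125 in BT WT and 34.5 in PBS members. It was 3.59-fold lower (95% interval 2.35 to 5.77) in BT mutant than in BT WT members and 3.62-fold higher (95% interval 2.67 to 5.04) in BT WT than in PBS members, and both differences held. Muc1 was at 57.9 CPM in BT mutant, 138 in BT WT and 35.8 in PBS members without members over 20000 UMIs. A Muc1 UMI was seen in 13 of 90 BT mutant members (14.4%, 95% interval 7.92 to 23.4%), 334 of 835 BT WT members (40.0%, 36.7 to 43.4%) and 22 of 155 PBS members (14.2%, 9.11 to 20.7%), or in 4.88% in BT mutant, 13.3% in BT WT and 3.12% in PBS members at 1000 UMIs each. Colonocyte barcodes carried almost none, at 0.375 CPM in BT mutant, 2.74 in BT WT and 0.925 in PBS colonocyte barcodes. Muc4 was at 284 CPM in BT mutant, 346 in BT WT and 195 in PBS members, 1.78-fold higher (95% interval 1.56 to 2.04) in BT WT than in PBS members, which held. Muc13, the most abundant of the group, was at 864 CPM in BT mutant, 1304 in BT WT and 1228 in PBS members. Muc3a was at 141 CPM in BT mutant, 76.4 in BT WT and 49.5 in PBS members and was the member that held higher in BT mutant than in BT WT members.

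Genes of transport across the goblet cell membrane included several with little or no expression in colonocytes. Best2, a bestrophin channel involved in bicarbonate secretion by colonic goblet cells, was at 47.5 CPM in BT mutant, 98.5 in BT WT and 384 in PBS members, with 0.141 CPM in BT mutant, 2.17 in BT WT and 3.60 in PBS colonocyte barcodes. It was 3.90-fold lower (95% interval 3.44 to 4.41) in BT WT than in PBS members and 8.08-fold lower (95% interval 5.58 to 12.1) in BT mutant than in PBS members, and both held. Best2 was at 79.9 CPM in BT mutant, 105 in BT WT and 427 in PBS members without members over 20000 UMIs. Scnn1g, the gamma subunit of the epithelial sodium channel (chromosome 7, GRCm38 7:121734479-121768475, plus strand), was at 20.6 CPM in BT mutant, 81.3 in BT WT and 142 in PBS members and at 0.188 CPM in BT mutant, 1.14 in BT WT and 0.308 in PBS colonocyte barcodes. It had a UMI in 10 of 90 BT mutant members (11.1%, 95% interval 5.46 to 19.5%), 298 of 835 BT WT members (35.7%, 32.4 to 39.0%) and 70 of 155 PBS members (45.2%, 37.2 to 53.3%), and in 0 of 456 BT mutant, 0 of 611 BT WT and 0 of 248 PBS B cell barcodes, which allow shares of up to 0.658%, 0.491% and 1.21%. The level was 3.95-fold lower (95% interval 2.28 to 7.47) in BT mutant than in BT WT members, which held, and it was at 35.8 CPM in BT mutant, 89.5 in BT WT and 177 in PBS members without members over 20000 UMIs. After thinning, Scnn1g was found in 0.00% in BT mutant, 7.84% in BT WT and 8.59% in PBS members, too close to the level of 1 UMI to rank. Klk1, a tissue kallikrein protease, was at 597 CPM in BT mutant, 317 in BT WT and 1541 in PBS members, 4.86-fold lower (95% interval 4.55 to 5.19) in BT WT than in PBS members, and this held. In BT mutant members, 3 members supplied 65.8% of its UMIs. Colonocyte and crypt-base barcodes also carried Klk1, at 235 CPM in BT mutant, 149 in BT WT and 379.6 in PBS colonocyte barcodes and at 1879.7 CPM in BT mutant, 2908 in BT WT and 2750.1 in PBS crypt-base barcodes.

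A gene was compared between 2 libraries if it had at least 20 UMIs over both libraries' members, and the fold was taken after adding 10 CPM. Of all 9893 genes compared between BT mutant and BT WT members, 14.0% were at least 1.5-fold higher in BT mutant and 11.0% lower, and 2.53% and 4.98% held. Of 14 goblet transcription factors compared between BT mutant and BT WT members, 3 were at least 1.5-fold higher and 4 lower, and of these Hnf4a and Foxa1 held as lower. Klf4, which promotes goblet maturation, was at 694 CPM in BT mutant, 1118 in BT WT and 1199 in PBS members. Foxa3, a forkhead factor of goblet cells, was at 85.6 CPM in BT mutant, 116 in BT WT and 90.3 in PBS members, within 1.5-fold in all 3 comparisons. Hes1, the Notch effector that opposes Atoh1, was at 215 CPM in BT mutant, 607 in BT WT and 374 in PBS members and had a UMI in 46 of 90 BT mutant members (51.1%, 95% interval 40.3 to 61.8%), 692 of 835 BT WT members (82.9%, 80.1 to 85.4%) and 88 of 155 PBS members (56.8%, 48.6 to 64.7%). Its level was 2.82-fold lower (95% interval 2.37 to 3.37) in BT mutant than in BT WT members, which held, although 3 members supplied 37.5% of the BT mutant Hes1 UMIs. After thinning Hes1 was seen in 20.7% in BT mutant, 44.2% in BT WT and 25% in PBS members, and in colonocyte barcodes it was at 59.3 CPM in BT mutant, 178 in BT WT and 68.7 in PBS colonocyte barcodes.

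The machinery of mucin sugar chains and of granules was compared through lists of their genes. Between BT mutant and BT WT members, 8 of 36 O-glycosylation genes were at least 1.5-fold higher and 2 lower, beside 14.0% and 11.0% of all genes. The list median was 0.15 in the sum, −0.05 with equal weight and −0.06 without members over 20000 UMIs. B3gnt6, B3gnt7 and one of the genes named St6galnac2 held as higher, although St6galnac2 was at −0.17 on the log2 scale after thinning, and B4galnt2, which makes the Sda-type sugar structure of the gut, held as lower at 20.6 CPM in BT mutant, 70.9 in BT WT and 51.0 in PBS members. B3gnt6, which builds core 3 chains, rested on 17 UMIs in BT mutant, 10 in BT WT and 2 in PBS members. Galnt7, the most abundant of the list, was at 372 CPM in BT mutant, 428 in BT WT and 423 in PBS members. Among granule and exocytosis genes, 1 of 21 was higher and 1 lower between BT mutant and BT WT members, again beside 14.0% and 11.0% of all genes, and neither held.

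Between BT WT and PBS members, 799 of 9953 genes (8.03%) were at least 1.5-fold higher in BT WT and 387 (3.89%) lower, and 475 (4.77%) and 201 (2.02%) held. The median log2 ratio of all compared genes was 0.12, and 0.00 with median-ratio scaling, which gave 444 higher and 637 lower. With CPM taken outside the rule and mitochondrial genes, 811 were higher and 591 lower. Interferon-stimulated genes were higher in BT WT members for 13 of 28, of which 10 held, with 0 lower and a list median of 0.57. The summed list was at 841 CPM in BT mutant, 1279 in BT WT and 575 in PBS members. Colonocyte barcodes had the same order of libraries, at 856 CPM in BT mutant, 1425 in BT WT and 472 in PBS, so it was not particular to members. Irf7, the interferon regulatory factor and most abundant of them, was at 108 CPM in BT mutant, 201 in BT WT and 81.6 in PBS members. Zbp1, a sensor of Z-form nucleic acids, was at 20.6 CPM in BT mutant, 69.6 in BT WT and 14.9 in PBS members, above its 3.19 CPM in BT mutant, 23.4 in BT WT and 0.514 in PBS colonocyte barcodes, and was 4.67-fold higher (95% interval 2.95 to 7.84) in BT WT than in PBS members. Oasl2, of the oligoadenylate synthetase family, was at 17.4 CPM in BT mutant, 56.7 in BT WT and 11.0 in PBS members. Ifit1bl1 had the largest difference, at 57.0 CPM in BT mutant, 151 in BT WT and 4.71 in PBS members and 32.1-fold higher (95% interval 14.7 to 87.7) in BT WT than in PBS members. Colonocyte barcodes carried more of it, at 151 CPM in BT mutant, 399 in BT WT and 11.7 in PBS colonocyte barcodes, and Ifit genes are close copies of one another.

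Beside the lists of this paragraph, 8.03% of all 9953 genes compared were higher in BT WT and 3.89% lower, and 4.77% held as higher. Antigen presentation by MHC class I had 5 of 14 genes higher in BT WT than in PBS members and 0 lower, and Psmb8, Psmb10, Tap1 and Tapbp held. The summed list was at 2842 CPM in BT WT and 2615 in PBS members. It was at 2824 and 3023 CPM with equal weight, and at 2960 and 2367 CPM without members over 20000 UMIs. In colonocyte barcodes the list was at 3818 CPM in BT WT and 5305 in PBS. Psmb8, an immunoproteasome subunit, was at 52.3 CPM in BT mutant, 66.1 in BT WT and 19.6 in PBS members. Of 17 inflammasome and pattern recognition genes, 4 were higher and held: Nlrp6, Nlrp9b, Casp4 and Gsdmd. Nlrp6, linked in mice to mucus release by goblet cells, was at 57.0 CPM in BT mutant, 86.7 in BT WT and 25.1 in PBS members, and colonocytes had more, at 147 CPM in BT mutant, 245 in BT WT and 91.2 in PBS colonocyte barcodes. Nlrp6 was at 19.3 CPM in BT mutant, 86.2 in BT WT and 13.0 in PBS members without members over 20000 UMIs. Gsdmd, the pore-forming gasdermin D, was at 38.0 CPM in BT mutant, 98.5 in BT WT and 55.7 in PBS members and at 78.2 CPM in BT mutant, 155 in BT WT and 34.5 in PBS colonocyte barcodes. The clock list had 5 of 16 genes higher, with Ciart, Bhlhe40, Dbp and Tef holding. Dbp, an output factor of the circadian clock, was at 65.0 CPM in BT mutant, 63.1 in BT WT and 18.1 in PBS members, and the hour of tissue collection is not stated in the sources used here.

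Atp1b1, a sodium pump subunit and the most abundant ion transport gene, was at 605 CPM in BT mutant, 1054 in BT WT and 1531 in PBS members, and Guca2a, which encodes the hormone guanylin of goblet and surface cells, at 475 CPM in BT mutant, 414 in BT WT and 945 in PBS members. Guca2a held as lower in BT WT than in PBS members, at 433 CPM in BT mutant, 299 in BT WT and 468 in PBS members without members over 20000 UMIs. Further genes led the difference of BT WT over PBS members. Slfn2, a Schlafen gene, was at 15.8 CPM in BT mutant, 66.1 in BT WT and 3.92 in PBS members and was 16.8-fold higher (95% interval 7.15 to 52.2), with little in colonocytes at 1.13 CPM in BT mutant, 3.94 in BT WT and 3.70 in PBS colonocyte barcodes. It is a lymphocyte gene as well, found in B cell barcodes at 24.6% in BT mutant, 21.4% in BT WT and 24.2% in PBS. Lama3, a laminin chain of the basement membrane, was at 41.2 CPM in BT mutant, 122 in BT WT and 13.3 in PBS members, and Mlxipl, which encodes the sugar-responsive factor ChREBP, at 22.2 CPM in BT mutant, 57.2 in BT WT and 5.49 in PBS members. Ceacam20, a surface adhesion protein, was at 28.5 CPM in BT mutant, 78.6 in BT WT and 10.2 in PBS members. All 3 were higher still in BT WT colonocyte barcodes, Lama3 at 324, Mlxipl at 149 and Ceacam20 at 296 CPM. Other genes named by the same rule for BT WT were Hbb-bs, Sectm1b, Slc9a2, Slc37a2, Upp1, Igsf9 and Syne2, of which Hbb-bs is a red blood cell gene whose UMIs came mostly from 3 members (78.6% in BT WT).

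Mitochondrial respiration genes were lower in BT WT than in PBS members for 23 of 31 nuclear-encoded subunits, 17 of which held. The list median was −0.91, with 0 higher. Of all genes compared, 3.89% were lower and 2.02% held as lower. Cox8a, a subunit of cytochrome c oxidase, was at 1079 CPM in BT mutant, 552 in BT WT and 1080.1 in PBS members, and Cox7b at 347 CPM in BT mutant, 209 in BT WT and 594 in PBS members. With members over 20000 UMIs left out, Cox8a was at 452 CPM in BT mutant, 414 in BT WT and 671 in PBS members and Cox7b at 176 CPM in BT mutant, 141 in BT WT and 298 in PBS members, and the list median was −0.59. In colonocytes Cox8a was likewise lowest in BT WT, at 2582 CPM in BT mutant, 1244 in BT WT and 2690.4 in PBS colonocyte barcodes. Glutathione and NRF2 genes, which handle oxidants and reactive compounds, were lower in BT WT for 17 of 23, of which 13 held. These counts stand beside the same 3.89% and 2.02% of all genes. The list median was −1.25 in the sum and −0.63 without members over 20000 UMIs. Gclc, the catalytic subunit that makes glutathione, was at 60.2 CPM in BT mutant, 55.7 in BT WT and 449 in PBS members, and Cbr3, a carbonyl reductase, at 26.9 CPM in BT mutant, 5.44 in BT WT and 269 in PBS members. Gsta1, an alpha-class glutathione transferase with close copies, was at 1.58 CPM in BT mutant, 1.5 in BT WT and 276 in PBS members. In PBS members, however, 3 members supplied 67.5% of the Gclc, 67.6% of the Cbr3 and 82.4% of the Gsta1 UMIs, and without members over 20000 UMIs the PBS levels were 186 CPM for Gclc, 104 CPM for Cbr3 and 58.5 CPM for Gsta1. PBS colonocyte barcodes held 1154 CPM of Gclc, and the part of colonocyte RNA in these members was not tested. Apoc2, Ces1g, Akr1b8, Slc6a19, Aldh1a1, Adamdec1 and Ddc were, with Klk1, Gclc, Cbr3 and Gsta1, among the 12 genes lowest in BT WT over PBS members.

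Between BT mutant and BT WT members, 1383 of 9893 genes (14.0%) were at least 1.5-fold higher in BT mutant and 1092 (11.0%) lower, but 250 (2.53%) and 493 (4.98%) held. With CPM taken outside the rule and mitochondrial genes, 1332 were higher and 1588 lower. Without members over 20000 UMIs, 458 genes were higher in BT mutant and 1244 lower. The 2 members rich in enteroendocrine UMIs carried the hormones at the top of the list: Pyy was at 5808 CPM in BT mutant, 0.751 in BT WT and 3.14 in PBS members, and without members over 20000 UMIs at 0.00 CPM in BT mutant, 0.837 in BT WT and 3.25 in PBS members. Gcg, Insl5 and Cck, also hormones of enteroendocrine cells, stood beside Pyy. Gpx2, a glutathione peroxidase of the crypt, was at 491 CPM in BT mutant, 51.8 in BT WT and 86.3 in PBS members, with 94.8% of the BT mutant UMIs in 3 members. Gpx2 was at 44.1 CPM in BT mutant, 16.5 in BT WT and 96.4 in PBS members without members over 20000 UMIs. Of 21 glutathione and NRF2 genes, 8 were higher in BT mutant and 2 lower. Gpx2, Mgst1, Gsta4, Cbr3 and Gstp1 held as higher and Prdx6 as lower, with list medians of 0.13 in the sum and −0.05 without the large members. Cd177, Clca3b and Hopx had 87.8%, 98.8% and 94.4% of theirs in 3 members. Ifitm3, Fabp5, Reg4 and Nme1 made up the rest of the 12 highest genes. The lower crypt and stem list, 15 of 18 higher in the sum with a median of 1.09, had 1 gene that held and a median of −0.08 without members over 20000 UMIs. The respiration list, 23 of 31 higher in the sum with a median of 0.73, had 0 that held and a median of 0.01 without those members. Protein folding and secretion had 12 of 38 higher and 1 that held (Pdia5), with a median of 0.31 in the sum and −0.06 without them.

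Of all 9893 genes compared between BT mutant and BT WT members, 11.0% were lower in BT mutant and 14.0% higher. Of all genes, 4.98% held as lower and 2.53% as higher, and the lists below stand beside these shares. Of 28 interferon-stimulated genes, 13 were lower in BT mutant than in BT WT members and 10 held, while 6 were higher and 1 held. The list median was −0.51 in the sum and −0.48 without the large members. Zbp1 was 3.38-fold lower (95% interval 1.95 to 6.41) in BT mutant than in BT WT members, and Oasl2 3.25-fold lower (95% interval 1.79 to 6.58). Gbp2, a guanylate-binding protein of cell-autonomous defence, was at 7.92 CPM in BT mutant, 30.4 in BT WT and 3.92 in PBS members. Irf8, the gene that held as higher, is a lymphoid and myeloid factor and was at 47.5 CPM in BT mutant, 11.4 in BT WT and 11.8 in PBS members. Of 17 inflammasome and pattern recognition genes, 8 were lower and 2 higher, and Nlrp9b, Casp1, Naip1, Gsdmd and Nlrc4 held as lower. Naip1, a receptor subunit that pairs with NLRC4 to sense bacterial secretion systems, was at 69.7 CPM in BT mutant, 157 in BT WT and 104 in PBS members, 2.25-fold lower (95% interval 1.66 to 3.13) in BT mutant. Casp1, the inflammatory caspase, was at 38.0 CPM in BT mutant, 67.2 in BT WT and 76.1 in PBS members. Of 14 antimicrobial genes, 4 were higher in BT mutant, of which Ang4 held, and 6 were lower and held: Saa1, Saa2, Lypd8, Dmbt1, S100a8 and S100a9. Dmbt1, a scavenger receptor that binds bacteria, was at 203 CPM in BT mutant, 444 in BT WT and 188 in PBS members. S100a8 and S100a9, neutrophil proteins, were found in 2 and 1 BT WT members and in 0 members of the other libraries, so those calls rest on those barcodes. Of 18 NF-kB and chemokine genes, 9 were lower and 0 higher, beside 11.0% and 14.0% of all genes, and Rel and Ccl6 held.

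Among the 12 lowest genes of BT mutant against BT WT members were Atp12a, Aqp8, Slc40a1, Slc37a2, Rmrp, Ly6g, Slc20a1, Saa2, Muc1, Ankrd37 and Scnn1g. Atp12a, the colonic proton-potassium pump, was at 17.4 CPM in BT mutant, 237 in BT WT and 129.5 in PBS members and was 13.6-fold lower (95% interval 7.58 to 27.3). Aqp8, a water channel of surface colonocytes, was at 49.1 CPM in BT mutant, 377 in BT WT and 283 in PBS members, and Slc40a1, the iron exporter ferroportin, at 12.7 CPM in BT mutant, 102 in BT WT and 97.3 in PBS members. Slc20a1, a phosphate transporter, was at 111 CPM in BT mutant, 370.3 in BT WT and 125 in PBS members. Colonocyte barcodes carried more of each of these, with Atp12a at 106 CPM in BT mutant, 578 in BT WT and 485 in PBS colonocyte barcodes and Aqp8 at 514 CPM in BT mutant, 1222 in BT WT and 1915 in PBS colonocyte barcodes. Atp12a had the same order of libraries in colonocytes as in members, whereas Aqp8 was highest in PBS colonocytes. The part of colonocyte RNA in these differences was not tested. Rmrp, a noncoding RNA of ribosomal RNA processing, was in contrast higher in members, at 12.7 CPM in BT mutant, 69.4 in BT WT and 69.1 in PBS members against 3.80 CPM in BT mutant, 26.5 in BT WT and 5.24 in PBS colonocyte barcodes. Of the upper crypt and surface list, 11 of 23 genes were lower in BT mutant and 1 higher, beside 11.0% and 14.0% of all genes. Cldn4, Ceacam20, Aqp8, Lypd8, Car4 and Slc26a3 held as lower, beside 4.98% of all genes. The list median was −0.58 in the sum and −0.36 without the large members.

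**Figure D5:**
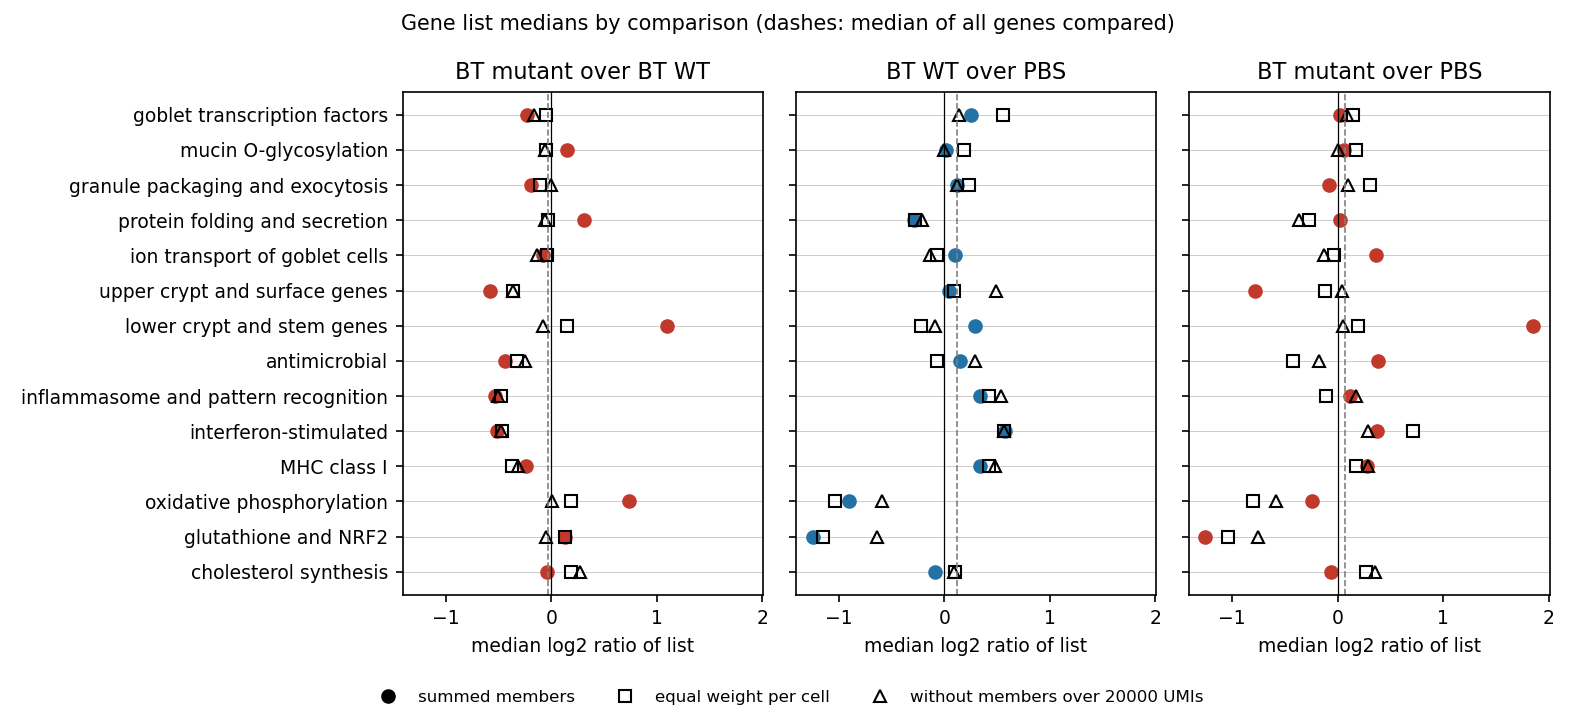
Median log2 ratio of 14 gene lists for BT mutant over BT WT, BT WT over PBS and BT mutant over PBS members, outside the rule genes; filled circles are summed members, squares give each member equal weight, triangles leave out members over 20000 UMIs, and the dashed line is the median of all genes compared. Interferon-stimulated and inflammasome lists keep their side under all 3 weightings in the first 2 panels, whereas lower crypt and respiration medians over BT WT shrink to −0.08 and 0.01 without the large members.

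The comparison of BT mutant with PBS members shares both libraries with the comparisons above and adds no independent evidence. Of 7113 genes compared, 1263 (17.8%) were at least 1.5-fold higher in BT mutant and 682 (9.59%) lower, and 298 (4.19%) held in each direction. With CPM taken outside the rule and mitochondrial genes, 1040 were higher and 1125 lower. Glutathione and NRF2 genes were lower in BT mutant for 14 of 21, of which 11 held, and 4 were higher, of which 0 held, with a list median of −1.25 in the sum and −0.75 without members over 20000 UMIs. Gclc was 7.46-fold lower (95% interval 5.37 to 10.6) in BT mutant than in PBS members, with the concentration in 3 PBS members given above, and was at 85.4 CPM in BT mutant, 58.8 in BT WT and 186 in PBS members without members over 20000 UMIs. Interferon-stimulated genes were higher for 6 of 16 and 0 lower, and Irf8, Xaf1 and Ifit1bl1 held. The respiration list had 2 of 31 higher and 4 lower, and the 4 held (Atp5k, Cox6a1, Ndufa3 and Cox7b). Upper crypt and surface genes were lower for 12 of 22 and 4 held, with a median of −0.78 in the sum and 0.04 without the large members, a change of sign. Ang4 was 2.73-fold higher (95% interval 2.30 to 3.25) in BT mutant than in PBS members and held. Creb3l1, a regulator of secretory capacity, was at 223 CPM in BT mutant, 124 in BT WT and 60.4 in PBS members. Sval1, a secreted protein, was at 363 CPM in BT mutant, 678 in BT WT and 1315 in PBS members. Sval1 was 3.62-fold lower (95% interval 3.15 to 4.18) in BT mutant than in PBS members and held, at 606 CPM in BT mutant, 713 in BT WT and 1414 in PBS members without members over 20000 UMIs.

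The highest genes of BT mutant over PBS members were the hormones Pyy, Gcg, Insl5 and Cck, with Clca3b, Hbb-bs, Cd177, Hba-a1, Hba-a2, Ifitm3, Reg4 and Hopx. Hba-a1 and Hba-a2 are near-identical red blood cell genes, and 94.4% of the Hbb-bs UMIs of BT mutant members lay in 3 of them. Among the lowest were Gsta1, Apoc2, Aldh1a1, Akr1b8, Ces1g, Cbr3, Best2, Gclc, Cxcl13, Adamdec1 and Atp12a. Aldh1a1, a retinaldehyde dehydrogenase, was at 22.2 CPM in BT mutant, 41.1 in BT WT and 349 in PBS members, with 465 CPM in BT mutant, 98.9 in BT WT and 1249 in PBS colonocyte barcodes. It was at 33.1 CPM in BT mutant, 36.4 in BT WT and 130.0 in PBS members without members over 20000 UMIs. Adamdec1 and Cxcl13 are stromal and immune genes, found in 2 and 5 PBS members.

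RNA of other cells was present in members at differing levels. All 20 colonocyte markers were found in BT WT and 19 in BT mutant and in PBS members, all but Clca4b, and their sum was 4197 CPM in BT mutant, 8433 in BT WT and 7418 in PBS members, against 21118, 19289 and 26323 CPM in the colonocyte barcodes of these libraries. The 12 enteroendocrine markers summed to 9609 CPM in BT mutant, 28.0 in BT WT and 22 in PBS members, with Tph1 at 0 in BT mutant and in PBS members. The 9 fat cell markers summed to 17.4 CPM in BT mutant, 24.2 in BT WT and 211 in PBS members, with Plin1 and Plin4 at 0 in all 3 and Adipoq at 0 in both colonized libraries. With equal weight per member they summed to 18.2 CPM in BT mutant, 103 in BT WT and 739 in PBS members. B cell markers summed to 108 CPM in BT mutant, 102 in BT WT and 108 in PBS members, and T and NK cell markers to 7.92, 19.1 and 3.92 CPM with Cd4 and Gzmb at 0 in all 3. Macrophage markers summed to 31.7, 33.4 and 29.0 CPM, fibroblast markers to 318, 361 and 311 CPM, endothelial markers to 12.7, 7.88 and 5.49 CPM with Plvap at 0 in all 3, and tuft cell markers to 260, 139 and 71.4 CPM in BT mutant, BT WT and PBS members. Plasma cell markers summed to 144 CPM in BT mutant, 162 in BT WT and 143 in PBS members, with Tnfrsf17 at 0 in all 3. The part of this RNA in the differences above was not tested, beyond the weightings given.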

How the data were processed

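Single cells of the colon were captured with Chromium 3′ v3 kits, per the labels' protocols, in 1 library per group. The deposited files hold UMI counts per gene and barcode, with Cell Ranger 5.0.0 named per the file headers. Cell Ranger, STAR and build mm10 are named per the submitters' processing notes, while neither the barcode calling nor the annotation release is named. Doublets were not removed.

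Member UMIs were summed per library and expressed as CPM of all 32285 genes' UMIs. Genes with at least 20 UMIs over 2 libraries were compared as log2((CPM + 10)/(CPM + 10)), and 1.5-fold stood for a call. The 95% intervals of folds (CPM ratios) are exact and conditional on the summed UMIs, and those of shares are Clopper-Pearson. Fold intervals were tested on simulated counts drawn independently for each gene. Such counts leave out the clustering of UMIs in a few members, so coverage under that clustering was not tested. No test between groups was possible with 1 library each. Epithelial barcodes had at least 3 UMIs from Epcam, Cdh1, Krt8, Krt18 and Krt19 and more than from 8 blood, stromal and endothelial markers. Colonocyte barcodes were epithelial with under 2% goblet and at least 1% colonocyte markers. B cell barcodes had at least 3 UMIs from Cd79a, Cd79b and Ms4a1 and 0 from Epcam, Krt8 and Cdh1. To compare shares of members with a UMI, members were thinned to 1000 UMIs.

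Named genes were the 12 highest and 12 lowest per comparison outside the rule genes and outside mitochondrial, ribosomal, immunoglobulin, T cell receptor, Gm and Rik genes, asking for 50 UMIs or more in all, a level of 50 CPM or more where it was higher, an interval that excluded 1, and a member level of at least 25% of that in other kept barcodes. To these were added the most abundant and most different gene of each list, all rule genes and the 15 leading genes. Genes that held in a list were named in addition, and so were Foxa3, Krt20, Mxd1 and others chosen after their values were seen. A few genes that met the rule are not reported here. The members and the 35 gene lists were chosen with earlier results of these data known. Gene positions are from GENCODE vM21 (GRCm38, 650 of 650 matched by ID), and promoters from RefSeq (GRCm38.p6). RefSeq promoters were matched for 2 of the 5 markers. Alternatives changed the mitochondrial, gene, goblet and crypt-base limits, the denominator, the scaling, the weight of members, the depth, the UMI minimum and the pseudocount, and left out members with colonocyte RNA or over 20000 UMIs. The analysis used Python 3.11.15 with numpy 2.4.6, scipy 1.17.1, pandas 2.3.3 and matplotlib 3.10.9.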

Additional observations from a re-analysis of the deposited data

How the results depend on the processing

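No paired analysis was possible because the 3 groups share only replicate number 1, with 1 library each, and for the same reason no library could be left out. The order of BT mutant under BT WT in the member share stood under every alternative tried. With a mitochondrial limit of 10% the shares were 4.08% in BT mutant, 32.6% in BT WT and 4.44% in PBS, with no limit 1.76%, 14.2% and 7.35%, and over all kept barcodes 1.47%, 11.8% and 4.85%. The PBS share was 11.9% with at least 1000 genes and 7.40% with at least 4% goblet markers, where BT WT had 16.5%, and BT WT had 13.5% with members under 1% colonocyte RNA.

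Counts of genes past 1.5-fold depended on the processing. Between BT mutant and BT WT members, the number higher in BT mutant was 825 with equal weight per member, 517 after thinning to 1000 UMIs, 384 with at least 4% goblet markers, 458 without members over 20000 UMIs (an alternative chosen after seeing the data) and 2177 with a pseudocount of 1 CPM, which gave 2145 lower. The number lower was 1257 with equal weight, 1281 after thinning, 1129 with at least 4% goblet markers and 1244 without members over 20000 UMIs. Under each of those, more genes were lower than higher in BT mutant, the reverse of the summed members. Between BT WT and PBS members, the numbers higher and lower in BT WT were 1328 and 1056 with equal weight, 444 and 637 with median-ratio scaling, 1806 and 891 with the 10% mitochondrial limit, and 2178 and 824 with a pseudocount of 1 CPM. There were 1226 higher after thinning and 591 lower with CPM taken outside the rule and mitochondrial genes. Between BT mutant and PBS members, the number higher in BT mutant was 162 after thinning, 598 with at least 4% goblet markers, 587 without members over 20000 UMIs, 679 with at least 50 UMIs and 1982 with at least 1 UMI. The number lower in BT mutant was 226 after thinning, 1235 with equal weight and 1125 with CPM outside the rule and mitochondrial genes.

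Some log2 values of at least 1.5-fold changed sign. Each list median here was taken over genes filtered anew under that alternative. For BT mutant over BT WT, thinning gave −1.10 for Nme1, −0.46 for Reg4 and −0.17 for St6galnac2. At least 4% goblet markers gave −0.11 for the lower crypt median, −0.031 for Gcg, −0.033 for Hopx, −0.091 for Pyy and −0.26 for Reg4. Leaving out members over 20000 UMIs gave −0.087 for the lower crypt median, with genes filtered anew, −0.030 for Gcg, −0.12 for Pyy and −0.30 for Reg4. For BT WT over PBS, the 10% mitochondrial limit gave −0.11 for Slc37a2 and −0.27 for Syne2, and at least 4% goblet markers gave 0.33 for Adamdec1. For BT mutant over PBS, the lower crypt median was −0.20 after thinning, −0.51 with at least 4% goblet markers and −0.82 without members over 20000 UMIs. On the genes compared in the summed members, the lower crypt median was 1.85 in the sum. On those same genes it was 0.05 without members over 20000 UMIs, so the −0.82 rests on a different set of genes. The 4% limit also gave −0.13 for Cck, −0.24 for Gcg, −0.10 for Hopx, −0.13 for Insl5 and −0.35 for Pyy. Leaving out the large members gave 0.040 for the upper crypt median, 0.041 for the colonocyte marker median, −0.15 for Cck, −0.28 for Gcg, −0.060 for Ifitm3, −0.15 for Insl5 and −0.41 for Pyy. The hormone values follow from leaving out the 2 members that carried those UMIs, and the cause of the other changes was not tested. Of the list medians recomputed, 867 in all, 145 changed sign, of which 7 had been at least 1.5-fold in the sum, and most of the others started near 0: the summed-member median was within 0.2 of 0 in 109.

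One library per group limits every comparison: nothing here measures the variation between mice. The 90 BT mutant members and their 631148 UMIs set the precision, and 4 of them held 42.5% of it. Intervals cover counting error only.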
